A study of Mus musculus with 9 samples.

Results

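The 10 genes described here are markers of megakaryocytes, the large bone marrow cells that shed platelets, and were taken as the rows of the deposited count table whose symbol is Pf4, Ppbp, Itga2b, Itgb3, Gp1ba, Gp1bb, Gp9, Vwf, Treml1 or Rab27b. All 10 were found among the 24421 symbols of the table, and all 10 passed the low-count filter, which left 13270 genes for testing. They were measured by bulk RNA sequencing in 9 libraries of mouse bone marrow cells. Cells carrying lineage markers had been removed, and the rest were expanded over 5 days with interleukin 3, interleukin 6 and stem cell factor into cultures the labels call myeloid blast like. Thrombopoietin, the main growth factor of megakaryocytes, is not among the cytokines the labels name. The WT group held 3 libraries of C57BL/6 cells given vehicle. Cells of Tet2-/-Flt3ITD mice, with the same C57BL/6 background in the labels, gave 3 libraries with vehicle and 3 with SHP099, an allosteric inhibitor of the phosphatase SHP2, for 24 h. By its label the mutant is Tet2-/-, a genotype of the DNA demethylase gene Tet2, and carries an internal tandem duplication of the receptor tyrosine kinase gene Flt3, and its cultures came from individual mice. The labels do not say how the alleles were made or which promoter drives a Cre, if any. No treated WT group was analysed here, and the labels give neither the age of the mice nor the drug dose.

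Platelets stop bleeding in steps, and the 10 genes cover them. Von Willebrand factor, encoded by Vwf, tethers platelets through the GPIb-IX receptor, whose subunits are encoded by Gp1ba, Gp1bb and Gp9. Fibrinogen then links platelets through an integrin made of the alpha chain of Itga2b and the beta chain of Itgb3. Alpha granules hold the chemokines of Pf4 and Ppbp, Treml1 encodes a receptor of the granule membrane, and Rab27b encodes a small GTPase of granule secretion. Megakaryocytes switch on such genes under GATA1, its cofactor FOG1 (Zfpm1), NF-E2 and ETS factors such as FLI1. Several members are not limited to this lineage: Itga2b is also used by early progenitors, Itgb3 and Rab27b by mast cells, and Vwf by endothelium.

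Total counts ran from 27242168 to 45810089 per library. As a check of the labels, Tet2 stood at 34.8, 31.8 and 33.1 CPM, that is, counts scaled to 1 common library size with TMM factors, in the WT libraries. The mutant vehicle libraries had 14.7, 14.9 and 17.0 CPM and the SHP099 libraries 10.9, 13.2 and 13.1 CPM, so that each mutant library lay below each WT library. The means were 46.7% and 37.4% of the WT mean, so part of the Tet2 signal remained, and gene-level counts do not show which exons were deleted. Markers of the labelled myeloid cells were abundant. The 9 neutrophil-lineage markers measured summed to between 25853 and 40837 CPM per library. Pairs of libraries from 1 group all differed beyond counting noise, by a chi-square over its degrees of freedom from 10.9 up to 114 across genes. SHP099 replicate 3 gave 114 with replicate 1 and 110 with replicate 2, and every other pair lay between 10.9 and 25.5. A p-value here reflects only how far these samples spread. The labels name no individual mice for the WT libraries, so the WT part of that spread may be technical.

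The 7 members with an entry in the RefSeq promoter table (GRCm38.p6) were searched, over the 250 bases before the annotated start, for short motifs of the factors named above. The other members are Itgb3, Vwf and Rab27b. The windows of 4 members that carry the fibrinogen receptor alpha chain, the GPIb-IX receptor and a granule chemokine are shown because they hold the matches closest to the start or the most matches. Each runs 5′ to 3′ on the gene's strand, and capitals mark the GATA letters (GATAA) and the ETS letters (AGGAAG or CGGAAG) on either strand.
Gp1ba, chr11:70638872-70639121, plus strand: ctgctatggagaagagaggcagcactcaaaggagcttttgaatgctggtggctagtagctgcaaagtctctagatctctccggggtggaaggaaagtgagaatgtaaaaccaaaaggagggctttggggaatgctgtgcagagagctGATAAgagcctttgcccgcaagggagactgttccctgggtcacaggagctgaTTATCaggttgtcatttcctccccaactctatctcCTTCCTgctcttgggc
Gp9, chr6:87777820-87778069, plus strand: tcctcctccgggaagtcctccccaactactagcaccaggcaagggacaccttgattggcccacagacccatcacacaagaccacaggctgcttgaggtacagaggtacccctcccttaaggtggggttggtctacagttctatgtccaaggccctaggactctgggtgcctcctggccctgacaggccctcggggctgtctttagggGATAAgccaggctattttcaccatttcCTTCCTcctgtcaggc
Pf4, chr5:90772185-90772434, plus strand: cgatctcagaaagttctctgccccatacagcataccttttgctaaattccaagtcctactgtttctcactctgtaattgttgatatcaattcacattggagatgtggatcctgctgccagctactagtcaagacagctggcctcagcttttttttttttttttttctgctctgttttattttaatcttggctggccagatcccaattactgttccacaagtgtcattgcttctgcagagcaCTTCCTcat
Itga2b, chr11:102469884-102470133, minus strand: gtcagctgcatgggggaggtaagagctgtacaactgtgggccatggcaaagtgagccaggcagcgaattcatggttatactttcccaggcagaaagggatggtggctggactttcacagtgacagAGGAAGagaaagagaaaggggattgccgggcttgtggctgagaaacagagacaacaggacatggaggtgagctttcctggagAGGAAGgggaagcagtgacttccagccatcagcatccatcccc
The ETS letters lay in 5 of the 7 windows and in 39.2% of the 32851 windows of the table, and the GATA letters in 2 of the 7, against 22.6% of all windows. In Gp1ba and Gp9 alike the ETS match CTTCCT stood at -16 to -11 from the start, and both windows also held GATAA, in Gp9 at -43 to -39 and in Gp1ba at -103 to -99 and, on the opposite strand, at -51 to -47. Pf4 had its ETS match at -9 to -4, Itga2b had matches at -125 to -120 and -43 to -38, and Gp1bb had one at -90 to -85. The RUNX letters TGTGGT were found in Gp9 and in 14.0% of all windows. The longer NF-E2 motif was in none of the 7 and in 0.353% of all windows. The windows of Ppbp and Treml1 held none of these letters. The Itga2b window ends at the start of its coding transcript in GENCODE M21, at 102469883, but a non-coding transcript begins upstream of it at 102470122, so that 239 of the window's 250 bases lie within the annotated bounds of the gene. The Gp9 window stops 2 bases short of its GENCODE M21 start at 87778072, so the positions given for Gp9 hold for the RefSeq start. All the motif matches are matches of letters in a short window and were not tested against binding.

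All 10 genes were readily measured in WT cells. Per transcript length, Pf4 was the most abundant of the 10 at 2935 ± 351 TPM (counts per length of the longest coding transcript, scaled to a fixed total per library; SD, n = 3), rank 24 among 12801 tested genes with a length. Ppbp followed at 1875 ± 252 TPM. Both genes encode CXC chemokines and lie next to each other on chromosome 5 of GRCm38, Ppbp at 90768518 to 90770063 and Pf4 at 90772435 to 90773383, on the plus strand, 2371 bases apart with no annotated gene between them. The integrin chains came next, Itga2b (chromosome 11, 102453297 to 102470122, minus strand) at 530.5 ± 87.8 TPM and Itgb3 (chromosome 11, 104608000 to 104670476) at 425 ± 57.9 TPM, and the ranges of these 2 overlapped over the WT libraries. Gp9 stood at 213 ± 21.3 TPM, Treml1 at 156 ± 23.8 TPM, Gp1bb at 115 ± 3.79 TPM, Vwf at 111 ± 18.2 TPM, Gp1ba at 72.4 ± 8.67 TPM and Rab27b at 55.8 ± 5.94 TPM. Among these, Gp1bb and Vwf overlapped, and each other neighbour pair in this order did not. Rab27b, the lowest, still lay above 74.1% of the tested genes. In mutant vehicle cells the order was the same except that Vwf stood above Gp1bb, and each neighbour pair from Gp9 to Gp1ba overlapped. With SHP099 the order was that of WT cells, again with overlaps from Gp9 down to Gp1ba.

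Together the 10 genes made up 0.425%, 0.414% and 0.524% of all counts in the WT libraries, 0.187%, 0.254% and 0.204% in the mutant vehicle libraries and 0.219%, 0.286% and 0.281% in the SHP099 libraries. The replicates of a group were high or low across the list. WT replicate 3 was the highest of its group for 9 of the 10 genes, mutant vehicle replicate 2 for all 10, and SHP099 replicate 1 was the lowest of its group for all 10.

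**Figure D1:**
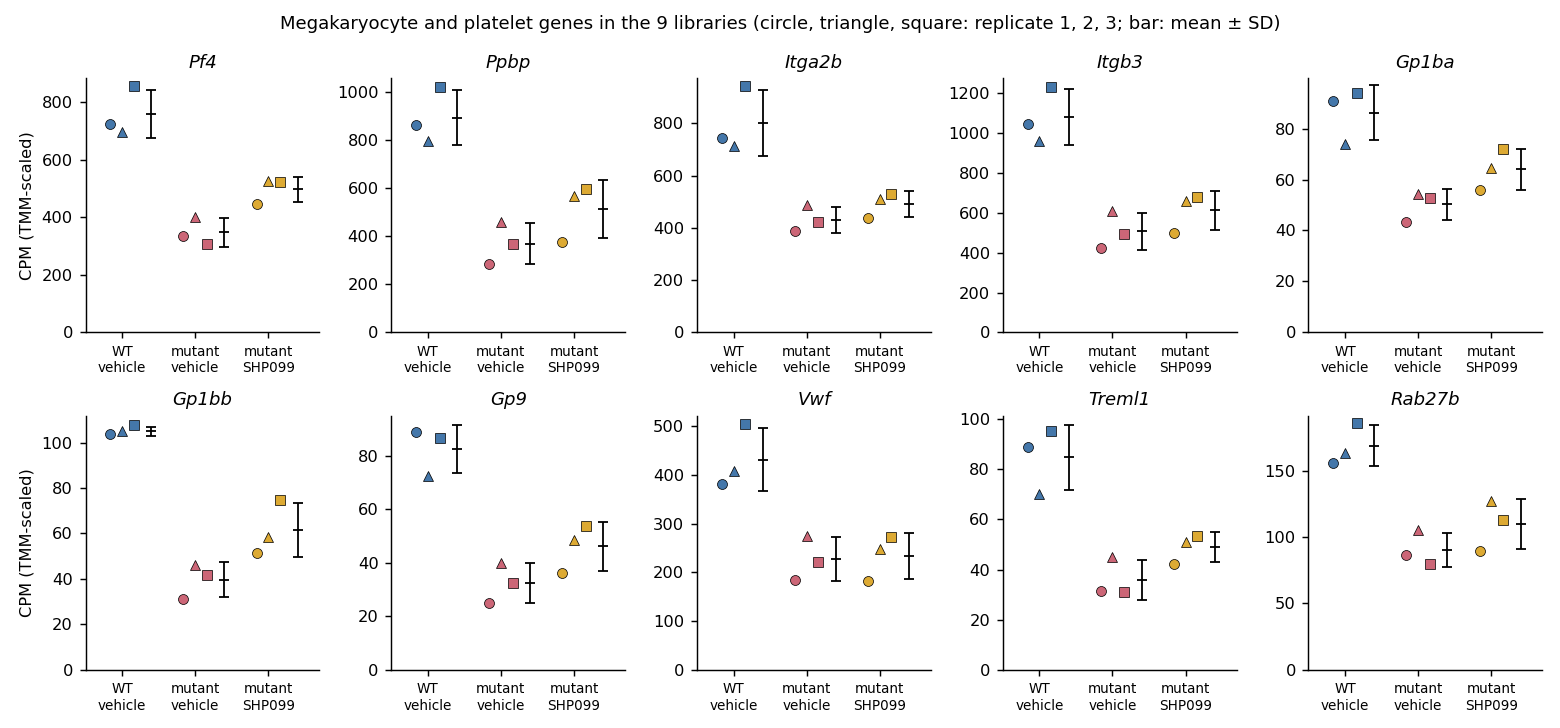
CPM (vertical axes, from 0) of each of the 10 genes in the 9 libraries by group. Points are libraries, with circle, triangle and square for replicates 1, 2 and 3, and bars are the mean ± SD of 3. For every gene the 3 WT libraries lie above all 6 mutant libraries.

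The first comparison sets mutant against WT cells, both with vehicle. All 10 genes were lower in the mutant cells, at 37.6% to 58.2% of their WT mean. Each passed an adjusted p of 0.05 (edgeR quasi-likelihood test, adjusted over all genes), and for each the 3 mutant libraries lay below the 3 WT libraries. Of all 13270 genes, 14.7% were called lower, 16.9% higher, and 20.5% were lower without overlap. The median log2 fold change of the 10 was -1.11, against 0.02 over all genes. Whether fewer cells of a type were present or each held less of this RNA cannot be told apart in bulk libraries.

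Among the chemokine genes, Ppbp had 863, 796 and 1018 CPM in the WT libraries and 285, 457 and 366 CPM in the mutant vehicle libraries, and its log2 fold change was -1.27 ± 0.20 with its SE (adjusted p = 0.0018 by edgeR). Pf4 had 723, 697 and 854 CPM against 333, 402 and 307 CPM. Its log2 fold change was -1.13 ± 0.11 (adjusted p = 0.00029). The highest mutant library of either gene was thus well short of the lowest WT library.

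All 3 GPIb-IX subunits fell. Gp1bb (chromosome 16, 18620317 to 18622403, minus strand), the beta chain of GPIb, had 104, 105 and 108 CPM in WT libraries, against 31.1, 46.1 and 41.7 CPM in the mutant ones, the largest decrease of the 10 (log2 fold change -1.41 ± 0.15; edgeR adjusted p = 0.00042). Gp9 (chromosome 6, 87778072 to 87779768), needed to bring the complex to the surface, went from 89.1, 72.3 and 86.5 CPM to 25.1, 39.9 and 32.4 CPM, a change of -1.35 ± 0.18 (adjusted p = 0.00095). Gp1ba (chromosome 11, 70639122 to 70642036), the chain that binds von Willebrand factor, had the smallest decrease, from 90.8, 74.0 and 93.9 CPM to 43.4, 54.4 and 52.8 CPM (-0.78 ± 0.12; adjusted p = 0.0016). The ratio of Gp1ba to Gp9 counts was 1.02, 1.02 and 1.09 in the WT libraries and 1.73, 1.36 and 1.63 in the mutant vehicle libraries, and that of Gp1ba to Gp1bb 0.873, 0.708 and 0.873 against 1.39, 1.18 and 1.27. These 2 ratios did not overlap between the groups, while the ratio of Gp1bb to Gp9 did, at 1.17, 1.45 and 1.24 against 1.24, 1.16 and 1.29. An exact two-sided permutation test of 3 against 3 libraries gave p = 0.10 for each of the first 2 ratios, the smallest p it allows, and 0.214 adjusted over the 15 comparisons of 5 ratios made after the values had been seen.

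Gp1bb needs a caution that the other members do not. In the GENCODE M21 annotation it is a single-exon gene on GRCm38, and 91.1% of its exonic bases also lie in exons of Sept5, a septin gene of the same strand with which it can form a joint transcript. How the counting treated such bases is not given in the sources used here, so its reads may be split with Sept5. Sept5 had 101, 94.3 and 79.8 CPM in the WT group, 75.4, 62.9 and 61.3 CPM with vehicle in the mutant and 81.5, 66.3 and 61.5 CPM with SHP099. Its own decrease in mutant cells was smaller, -0.46 ± 0.12 (edgeR adjusted p = 0.018), and the call was lost without WT replicate 1 or 2 or mutant vehicle replicate 2 or 3 (adjusted p 0.052 to 0.060). No other member shared exonic bases with another annotated gene.

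The integrin chains fell together. Itga2b had 743, 714 and 944 CPM in WT libraries, against 387, 486 and 421 CPM in the mutant ones (log2 fold change -0.89 ± 0.12; edgeR adjusted p = 0.0010). Itgb3, which also pairs with other alpha chains, had 1045, 959 and 1233 CPM against 422, 607 and 493 CPM (-1.09 ± 0.15; adjusted p = 0.0011). Their ratio, Itga2b to Itgb3, was 0.712, 0.745 and 0.766 in WT and 0.917, 0.801 and 0.855 in mutant libraries, again without overlap. The exact permutation p was 0.10, the smallest that test allows, and 0.214 adjusted over the same 15 comparisons.

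Vwf (chromosome 6, 125546774 to 125686679), the ligand of GPIb, had 381, 408 and 505 CPM in WT libraries, against 185, 274 and 222 CPM in the mutant ones, a change of -0.93 ± 0.18 (edgeR adjusted p = 0.0041), and its error was among the larger of the list. Of the 7 endothelial markers, Cdh5 and Emcn stayed below 1 CPM in every library and Cldn5 had no counts in any, Kdr and Tek averaged 3.84 and 2.33 CPM in WT cells, and Pecam1 averaged 210.2 CPM. The remaining one, Tie1, was higher in mutant cells (WT 12.9 ± 6.09 CPM, mutant 31.4 ± 9.98 CPM; 1.29 ± 0.35; edgeR adjusted p = 0.020), a call lost without WT replicate 1 or 3 or mutant vehicle replicate 1 or 3 (1.05 to 1.26; adjusted p 0.054 to 0.076). Treml1 (chromosome 17, 48359916 to 48367176) went from 89.0, 70.1 and 95.2 CPM to 31.4, 45.0 and 31.1 CPM (-1.24 ± 0.16; adjusted p = 0.00084). Rab27b, on chromosome 18, went from 156, 163 and 186 CPM to 86.3, 105 and 79.9 CPM (-0.90 ± 0.13; adjusted p = 0.0014). All 10 calls held under each of 17 alternatives.

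Markers of other cell types moved in the same comparison, in which 14.7% of all genes were called lower and 16.9% higher. Of 12 mast cell and basophil markers 9 were lower, with a summed level of 2611 to 3012 CPM per WT library and 1351 to 1886 CPM per mutant library, none of them at 0. Of 10 erythroid markers 7 were tested and all 7 were lower, with sums of 135 to 235 CPM against 31.7 to 68.4 CPM, and the globin genes Hba-a1, Hbb-bt and Hbb-bs had no counts in any library. Stem and progenitor markers summed to 63.7 to 70.7 CPM in WT libraries and to 38.9 to 44.2 CPM in mutant ones, with Mecom and Fgd5 below 1 CPM throughout. Of the 5 tested, 2 were called lower, Slamf1 (mean 36.6 to 15.8 CPM) and Mllt3 (17.2 to 11.7 CPM). Hlf (11.3 to 11.6 CPM) and Procr (1.07 to 1.23 CPM) did not fall. Endothelial markers summed to 225 to 235 CPM and 193 to 249 CPM with 1 of 4 tested, Tie1, called higher, and most of the sum came from Pecam1, a gene that platelets and leukocytes also use. Of 9 neutrophil markers 3 were lower (log2 fold changes of -0.96 for Ngp, -0.88 for Ltf and -0.43 for S100a9) and Mmp8 was higher by 1.0, with sums of 30276 to 38973 CPM in the WT group and 25853 to 31090.1 CPM in the mutant. Of 8 monocyte and macrophage markers Csf1r was higher by 0.80 and Cx3cr1 lower, at -0.74, with sums of 853 to 1084 CPM and 981 to 1059 CPM. The part of these cells in the fall of the 10 genes was not tested.

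**Figure D2:**
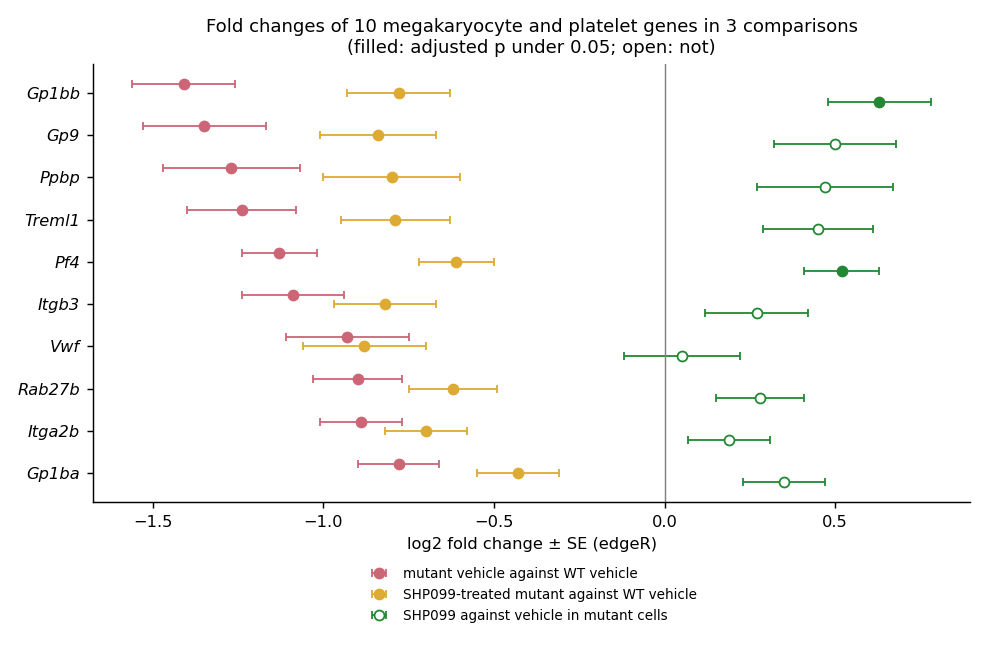
Log2 fold changes with standard errors from edgeR for each gene (vertical axis, ordered by the mutant against WT change) in 3 comparisons, with filled points for an adjusted p under 0.05. The mutant against WT changes run from -1.41 for Gp1bb to -0.78 for Gp1ba, those of treated mutant against WT from -0.88 for Vwf to -0.43 for Gp1ba, and those of SHP099 against vehicle from 0.05 for Vwf to 0.63 for Gp1bb.

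The second comparison asks what the SHP2 inhibitor did to these genes in mutant cells. Without regard to pairing, Pf4 and Gp1bb rose with SHP099 and the other 8 did not pass, with log2 fold changes from 0.05 to 0.50. That is 2 of 10 called, where 8.81% of all genes were called higher and 21.8% in either direction. The median log2 fold change of the 10 was 0.40, against 0.00 over all genes. Each SHP099 library was also set against the vehicle library of the same number (edgeR with the replicate number as a block, mutant libraries only). In that paired fit 9 of 10 genes were called higher, where 21.5% of 13004 genes were called higher and 21.3% lower. Its errors were smaller than the spread over the 3 pairs would give. For Pf4 its SE was 0.05, while the log2 ratios of the 3 pairs had an SD of 0.21. An SD describes single pairs and is larger than the SE of their mean. For Rab27b the SE and SD were 0.05 and 0.23, and for Gp1ba, with a smaller gap, 0.05 and 0.1. The paired p-values given below therefore do not measure the spread of each gene between the pairs. Libraries of the same number deviated from their group means together across genes, with correlations of 0.543 to 0.596. Different numbers gave -0.359 to -0.227, but centring each group on its own mean makes such values negative when same-number values are positive. The paired fit leaves 2 residual degrees of freedom per gene.

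Pf4 had 446, 524 and 522 CPM with SHP099, each above the highest vehicle library, a rise of 0.52 ± 0.11 on the log2 scale (SE; edgeR adjusted p = 0.010; 1.9e-09 in the paired fit). With the trend of counts on transcript length and GC content removed in each library, the change was 0.33 ± 0.10 and the adjusted p was 0.057. Gp1bb had 51.3, 58.5 and 74.6 CPM, again without overlap with vehicle, a rise of 0.63 ± 0.15 (adjusted p = 0.016). Sept5, which shares its bases, changed by 0.07 ± 0.12 (adjusted p = 0.72). The Gp1bb call held under each of 18 alternatives.

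Gp1ba had 55.9, 64.4 and 71.9 CPM, the only other member without overlap, and its change of 0.35 ± 0.12 missed the threshold (edgeR adjusted p = 0.063; 4.1e-07 in the paired fit). A count of 3 of 10 without overlap stands beside 18.3% of all genes. Gp9 had 36.0, 48.6 and 53.9 CPM (0.50 ± 0.18; adjusted p = 0.072; 4.7e-08 paired). The ratio of Gp1ba to Gp1bb with SHP099 was 1.09, 1.10 and 0.964, below each vehicle library and above each WT library (exact permutation p = 0.10 against either group, 0.214 adjusted).

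Ppbp, the other chemokine gene, had 374, 568 and 596 CPM, a change of 0.47 ± 0.20 (edgeR adjusted p = 0.12; 1.3e-08 paired). Its SD was 85.9 CPM over the vehicle libraries, whereas its log2 ratios of SHP099 to vehicle in the 3 pairs were 0.39, 0.31 and 0.70. Treml1 had 42.4, 51.2 and 53.4 CPM (0.45 ± 0.16; adjusted p = 0.074; 1.4e-06 paired).

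The smallest SHP099 changes were those of the integrin genes, Rab27b and Vwf. Itga2b had 437, 511 and 531 CPM (0.19 ± 0.12; edgeR adjusted p = 0.28; 0.00086 paired) and Itgb3 had 501, 658 and 677 CPM (0.27 ± 0.15; adjusted p = 0.23; 3.6e-05 paired). Rab27b had 89.6, 127 and 113 CPM (0.28 ± 0.13; adjusted p = 0.16; 6.3e-05 paired). Vwf had 182, 248 and 273 CPM, within the vehicle range but for a little at its low end, and did not pass in either fit (0.05 ± 0.17; adjusted p = 0.88; 0.50 paired, with 0.05 ± 0.05).

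The 2 libraries at the edges of the list mattered for the count without pairing. Without mutant vehicle replicate 2, the highest vehicle library for all 10 genes, 5 of 10 were called higher (9.12% of all genes), and without SHP099 replicate 1, the lowest treated library for all 10, 6 were (7.38%). Given these ranks, leaving out either library raises the change of every member. Leaving out any other single library gave 2 or 3 calls. DESeq2 called 4 (12.8%), and the replicate block over all 9 libraries called 3 (9.22%). That block also gives WT libraries the effect of mutant libraries of the same number. Same-numbered WT and mutant vehicle libraries did not deviate together across genes (correlations of -0.135 to -0.072). In the 3 pairs, 9 of 10 genes were higher with SHP099 in each, as were 32.2% of all genes. Pair 3, which holds the SHP099 library most unlike its group, had the largest ratio for every gene, for Pf4 0.77 against 0.42 and 0.38. Without SHP099 replicate 3, Pf4 and Gp1bb were still called, at 0.48 and 0.47 (edgeR adjusted p = 0.037 and 0.048).

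**Figure D3:**
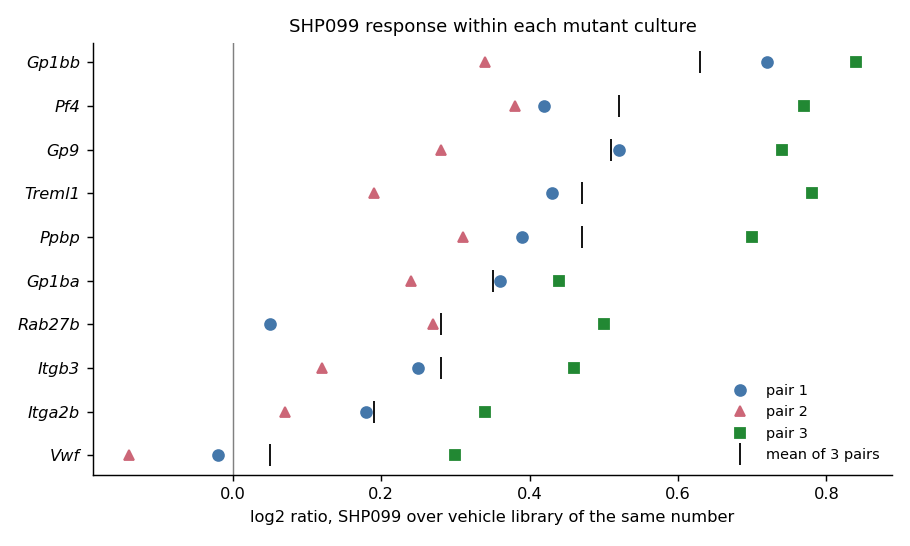
Log2 ratio of CPM in the SHP099 library over the vehicle library of the same number (horizontal axis) for each gene, with 1 symbol per pair and a bar at the mean of 3. For 9 of 10 genes all 3 pairs lie to the right of 0, and Vwf has ratios of -0.02, -0.14 and 0.30.

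The size of the SHP099 response went with transcript length within the list. Over the 10 genes, which share the same libraries, Spearman's rho of log2 fold change on the length of the longest coding transcript was -0.83, and over all 12801 genes with a length it was -0.34. Pf4, at 588 nucleotides, Gp9 at 881, Ppbp at 1083 and Treml1 at 1235 had changes of 0.45 to 0.52, and the long transcripts of Itgb3 (5784), Rab27b (6891) and Vwf (8834) had 0.05 to 0.28. After that correction for length and GC content, the 10 changes lay between 0.23 and 0.63 with a median of 0.36, and rho was -0.14. Over all 12801 genes rho was then 0.01, which the correction brings about by design. It would also take out any drug effect that varies with length. With the correction, Vwf stood at 0.27 ± 0.19 (edgeR adjusted p = 0.36) and Rab27b at 0.46 ± 0.14 (adjusted p = 0.047). In that fit 2 of 10 genes, Gp1bb and Rab27b, were called higher, where 7.56% of all genes were. In the comparison of mutant with WT the same correction left the 10 changes between -1.34 and -0.77, with rho 0.60 before and 0.62 after it.

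**Figure D4:**
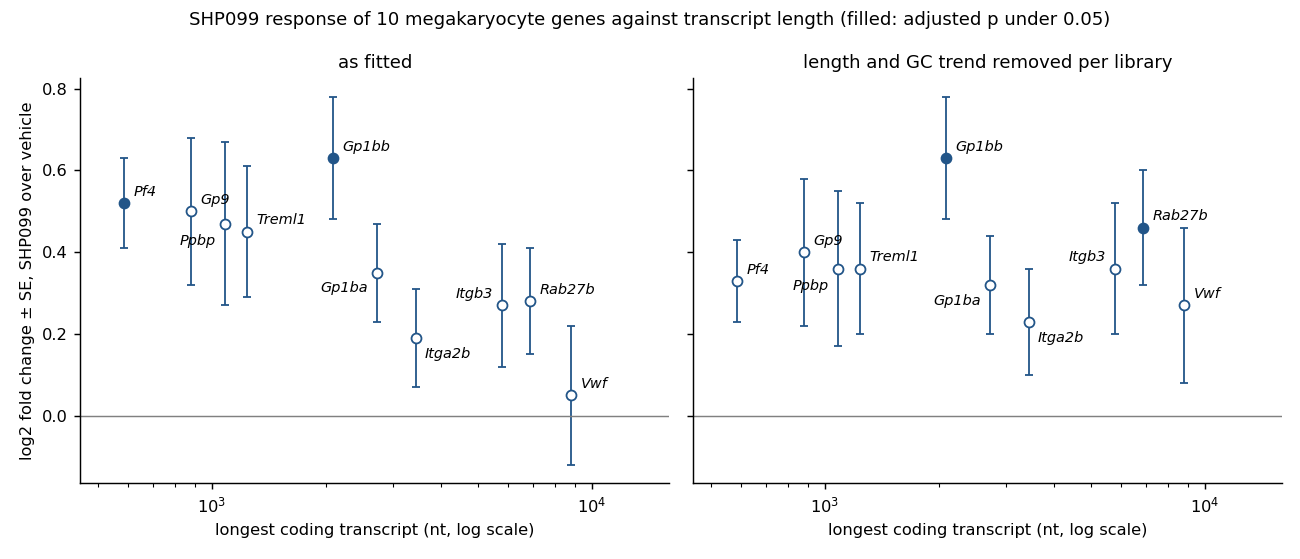
Log2 fold change with SHP099 ± SE (vertical axis) against the length of the longest coding transcript (horizontal log axis, nucleotides), as fitted on the left and with the length and GC trend removed on the right. On the left the shortest transcript, Pf4, lies at 0.52 and the longest, Vwf, at 0.05, with Gp1bb highest at 0.63, and on the right the 10 genes lie between 0.23 and 0.63.

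In the SHP099 comparison 4 of 12 mast cell and basophil markers rose, with sums of 1931 to 2459.6 CPM against 1351 to 1886 CPM with vehicle. Of 9 neutrophil markers 3 rose, with sums of 33804 to 40837 CPM against 25853 to 31090.1 CPM. Of 8 monocyte and macrophage markers 2 rose, with sums of 1395 to 1511 CPM against 981 to 1059 CPM. Of all genes, 8.81% were called higher and 21.8% in either direction. No erythroid marker of 7 tested was called, with sums of 36.3 to 75.7 CPM against 31.7 to 68.4 CPM. Their part in the response of the 10 genes was not tested.

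The third comparison, of treated mutant with vehicle-treated WT cells, shows how far from WT the genes stood after the drug. It differs in genotype and treatment at once and shares the WT libraries with the first comparison and the SHP099 libraries with the second. All 10 genes were lower than in WT cells, by 0.43 to 0.88 on the log2 scale, and none of the treated libraries reached the lowest WT library. Of all genes 16.3% were called lower, 15.4% higher, and 23.5% were lower without overlap. Gp1ba was nearest to WT, at 74.3% of its WT mean, compared with 58.2% in vehicle-treated mutant cells (-0.43 ± 0.12; edgeR adjusted p = 0.021), and this call was lost without WT replicate 1 or 3 and without SHP099 replicate 1 or 2, with changes of -0.44 to -0.34. Pf4 stood at 65.6% against 45.8% and Gp1bb at 58.4% against 37.6%. Vwf was at 54.4% of WT with SHP099 and 52.6% with vehicle, the smallest difference of the list.

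Beyond the 10 genes, a list of 61 other genes of the platelet pathway was followed by role, of which 60 were tested. In mutant against WT vehicle cells 45 were lower and 2 higher, with a median log2 fold change of -0.41. Of all genes, 14.7% were called lower and 16.9% higher. Surface receptors had the lowest median of the roles, -0.94, with 14 of 16 lower. Among them were Gp5, the remaining subunit of the GPIb complex (WT 149.8 ± 22.3 CPM, mutant 68.0 ± 13.9 CPM), and Clec1b, the receptor CLEC-2, at -1.62 ± 0.22 (edgeR adjusted p = 0.0011). Of the 5 called genes with the smallest p, Lat, an adaptor below the collagen receptor, changed by -1.01 ± 0.07, Stx11, a SNARE of granule release, by -1.02 ± 0.08, Fermt3, the integrin activator kindlin-3, by -0.43 ± 0.05, P2ry1, an ADP receptor, by -0.90 ± 0.10, and the adhesion molecule gene Esam by -1.02 ± 0.12.

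Transcription factors of the lineage differed in the size of their change. Zfpm1 changed by -1.05 ± 0.19, Gata1 by -1.0 ± 0.12 and Gfi1b by -0.91 ± 0.11 (edgeR adjusted p = 0.0031, 0.00060 and 0.00057), and 7 of 10 were called lower. Fli1, an ETS factor, and Runx1 changed by -0.10 ± 0.04 and -0.10 ± 0.03 and did not pass (adjusted p = 0.056 for each). In the other roles, 9 of 10 genes of integrin activation, all 6 of cytoskeleton and platelet shedding, 7 of 14 of granule cargo and secretion and 2 of 4 of eicosanoid synthesis were lower. F13a1, the A chain of factor XIII, which monocytes also make, was higher (0.88 ± 0.24; adjusted p = 0.020), but the call was lost without WT replicate 3 (0.68, adjusted p = 0.068) or mutant vehicle replicate 3 (0.63, adjusted p = 0.079). The other gene called higher, Vipas39 (0.14 ± 0.05; adjusted p = 0.042), lost its call in 13 of 17 alternatives.

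With SHP099, 11 of the 60 were called higher and 4 lower, with a median of 0.21. Of all genes, 8.81% were called higher and 21.8% in either direction. In the paired fit of mutant libraries 37 were higher and 5 lower, where 21.5% and 21.3% of 13004 genes were. Without mutant vehicle replicate 2 the counts were 20 and 4, where 9.12% and 9.91% of all genes were called. With the length and GC trend removed they were 10 and 0, where 1003 (7.56%) and 1199 of all 13270 genes were called. With the replicate block added they were 15 and 1, where 1055 and 1140 of all 13270 genes were called. Among the 5 with the smallest p, the SNARE genes Vamp8 (0.31 ± 0.03; edgeR adjusted p = 0.00047) and Stx11 (0.45 ± 0.08) and the adaptor gene Lat (0.40 ± 0.07) rose, and Tln1, which encodes the integrin activator talin, and Myh9, a nonmuscle myosin heavy chain, fell by 0.38 ± 0.05 and 0.31 ± 0.05. Without the length and GC trend the decreases were no longer called, at -0.17 ± 0.05 for Tln1 (adjusted p = 0.053) and -0.12 ± 0.05 for Myh9 (0.14), while Vamp8, Stx11 and Lat stayed called (0.25, 0.49 and 0.32). Of the transcription factors, Nfe2 rose by 0.23 ± 0.05 (adjusted p = 0.012). Gata1 changed by 0.33 ± 0.12 (adjusted p = 0.079). In treated mutant against WT cells 40 of the 60 were lower and 4 higher, where 16.3% of all genes were called lower and 15.4% higher. The smallest p were those of Tln1 (-0.58 ± 0.05), Myh9 (-0.52 ± 0.05), Lat (-0.61 ± 0.07), the filamin gene Flna (-0.45 ± 0.06) and Mafg, a partner of NF-E2 (-0.26 ± 0.03). Without the length and GC trend Tln1, Myh9, Flna and Mafg stayed called at -0.38, -0.34, -0.30 and -0.17.

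**Figure D5:**
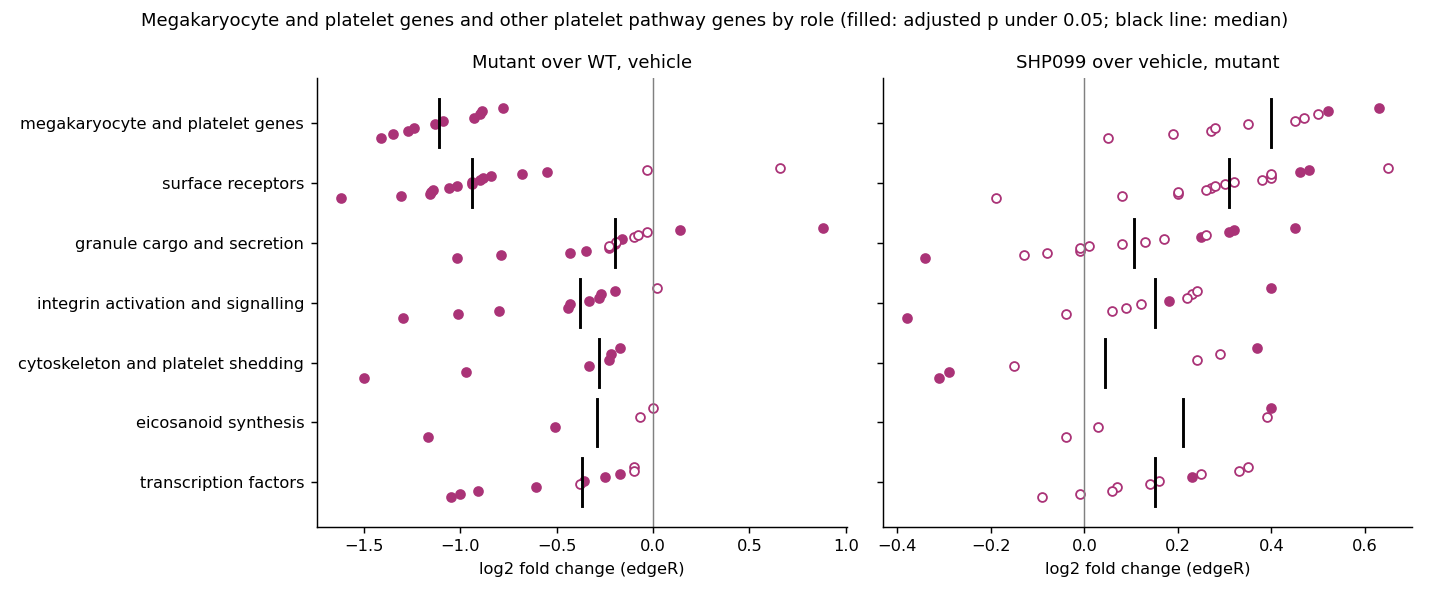
Log2 fold changes (horizontal axes, on separate scales) of the 10 megakaryocyte and platelet genes and of the other platelet pathway genes by role, for mutant over WT on the left and SHP099 over vehicle on the right. Filled points have an adjusted p under 0.05 and black lines are medians, which on the left run from -1.11 for the 10 genes and -0.94 for surface receptors to -0.19 for granule cargo and secretion.

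The genes whose pattern was most like the mean profile of the 10 over the 9 libraries were, in order, Ly6g6f, Gucy1b3, Gp5, Tspan9, Parvb, Tpm4, Prkca and Nrgn, out of 9616 candidates with a mean of at least 5 CPM. Their Pearson r with the profile ran from 0.991 to 0.997, given as a description. With group means removed from both sides, r was 0.95 to 0.99. Ly6g6f, the closest, had 38.9 ± 4.97 CPM in WT cells, 16.4 ± 3.35 CPM in the mutant with vehicle and 22.9 ± 3.61 CPM with SHP099. Within the list, each gene's r with the mean of the other 9 ran from 0.941 for Vwf to 0.995 for Itgb3.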

How the data were processed

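Libraries were made with a TruSeq stranded mRNA kit, per the labels' protocols. Tools named by the submitters' processing notes are STAR, Subread, featureCounts and FastQC, with mm10 as the build. Their versions, the annotation release and the strand setting were not given in the sources used here. The authors deposited 1 table of raw counts, whole numbers for 24421 gene symbols in 9 columns. The column of SHP099 replicate 3 differs from its sample title in the last character.

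The fits used edgeR 4.0.16 under R 4.3.3. Low genes were removed with filterByExpr (minimum count 10), leaving 13270, and TMM set the effective library sizes. All 9 libraries entered 1 quasi-likelihood fit of 3 group means with two-sided tests. Benjamini-Hochberg adjustment ran over every gene tested, and 0.05 was the threshold. The standard error is the log2 fold change over the square root of F. CPM values carry the SD of 3 libraries. This SD includes sampling error, which was not estimated gene by gene. The 10 genes together had 57869 to 213095 counts per library. Lengths, GC content, positions and overlaps come from GENCODE M21 (GRCm38, the assembly of mm10), which matched 23376 symbols, and promoter windows come from RefSeq (GRCm38.p6).

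Replicate numbers come from the titles, and by the correlations given above they pair mutant vehicle with SHP099 libraries. Same-numbered WT and mutant vehicle libraries did not deviate together (-0.135 to -0.072). Alternatives were RLE scaling, DESeq2 1.42.0, dropping the filter, a floor of 1 CPM reached by 3 libraries, leaving out 1 library in turn, the compared groups alone, the replicate block in 2 forms and the removal of a length and GC trend (lowess span 0.3). The code was tested on simulated data. The members and lists were chosen with earlier results of these data known. Named genes were all members, Tet2, up to 5 called pathway genes by p in each comparison, and the 8 genes most like the members' profile; Gp5, Clec1b, Zfpm1, Gata1, Gfi1b, Fli1, Runx1, F13a1, Vipas39, Nfe2, Sept5 and the marker genes were named after their values were seen.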

Additional observations from a re-analysis of the deposited data

How the results depend on the processing

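The 10 decreases of mutant against WT vehicle cells kept direction and call in all 170 refits of a member, and in treated mutant against WT cells 166 of 170 did. The other 4 were Gp1ba without WT replicate 1 or 3 or without SHP099 replicate 1 or 2. For SHP099 against vehicle, 22 refits added a call and 2 lost that of Pf4, both with the length and GC trend removed (adjusted p = 0.057 and 0.07). Vwf turned to -0.08 without mutant vehicle replicate 1 and without SHP099 replicate 3, with adjusted p = 0.81 and 0.82, and reached 0.22 with other single libraries left out. The replicate block in mutant libraries only raised the SHP099 counts from 2890 to 5563 genes, from 2 to 9 of the 10 and from 15 to 42 platelet pathway genes. The replicate number as a block over all 9 libraries gave 2879 genes, 3 of the 10 and 23 pathway genes, and DESeq2 called 4 of the 10. The cause of these differences was not tested. With 1 library left out, the SHP099 counts ran from 1767 (without SHP099 replicate 3) to 2976 genes, from 2 to 6 of the 10 and from 11 to 24 pathway genes. With 3 libraries a group, p-values rest on a spread estimate shared by all groups.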
